A study of Mus musculus with 6 samples.

Results

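Tubulin isotypes are the closely related α and β proteins whose dimers polymerise into microtubules. The 10 genes described here were taken by name from the deposited count table and comprise the α isotypes Tuba1a, Tuba1b, Tuba1c and Tuba4a and the β isotypes Tubb2a, Tubb2b, Tubb3, Tubb4a, Tubb4b and Tubb5. They are 10 of 21958 protein-coding genes in the table, and all 10 were among the 12255 genes with enough counts to be tested. Of the 10, Tubb2b mRNA differed most between the groups, at 581 ± 126 CPM, which are counts scaled to a common library size, on polyribosomes and 311 ± 37.8 in total RNA (SD, n = 3 libraries each).

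Synaptoneurosomes, a brain fraction enriched in pinched-off synapses with their pre- and postsynaptic parts, were prepared from hippocampus and the adjacent cortex of male FVB mice aged 6 to 8 weeks, with the tissue of several animals combined. One aliquot of each preparation was kept without stimulation, and its total RNA gave the 3 total RNA libraries. Another aliquot received a 30 s pulse of 50 µM NMDA with 10 µM glutamate, then 120 µM of the NMDA receptor blocker APV and 20 min of incubation, and its light and heavy polyribosomal fractions were pooled for the 3 polyribosome libraries. No genetic alteration of the mice is named. The question was which synaptic mRNAs are engaged in translation after NMDA-R stimulation. The paper's methods describe unstimulated controls as held on ice with the protein synthesis inhibitor cycloheximide, and stimulated aliquots as warmed and incubated. Stimulation, this handling and the RNA fraction changed together between the groups, so their parts cannot be told apart.

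In neurons, microtubules carry transport along axons and dendrites, and newly made tubulin needs the prefoldin and CCT chaperones and the tubulin cofactors before it can enter a dimer. Tuba1a is the main α isotype of developing neurons, Tubb3 is used as a neuronal marker, Tubb4a is abundant in oligodendrocytes as well as neurons, and Tubb2b is known from cortical malformations caused by its mutation. Tubb5 and Tuba1b are expressed in most cell types. Tubulin mRNAs are also under autoregulation, in which an excess of free tubulin leads to decay of those tubulin mRNAs that are being translated, through recognition of the first part of the nascent chain by Ttc5, its partner Scaper and the Ccr4-Not deadenylase.

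The counts on protein-coding genes summed to between 5294482 and 7361580 in the polyribosome libraries and between 1044955 and 3738022 in the total RNA libraries, and total RNA replicate 3 was the shallowest. In that library the isotypes had between 28 counts, for Tuba1c, and 358 counts, for Tubb2b. Markers of neurons were present, with summed levels of 11496 to 14365 CPM on polyribosomes against 11022 to 12686 in total RNA. Markers of glial and endothelial cells were also present, and no marker was at 0. With a threshold of 0.01 on the adjusted p, edgeR's quasi-likelihood test called 87 genes higher on polyribosomes and 289 lower. A fit with the replicate number as a block, which compares libraries of the same preparation, called 1441 and 1622. Nothing in the labels says how the mice of different preparations were related, so the p-values concern these preparations only. The edgeR p-values rest on variances that are moderated over all genes tested. They therefore do not measure an isotype's own spread between preparations alone, and the fit without the block leaves out the pairing.

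The starts of the coding sequences, with codons 2 to 4 in capitals, are shown because every isotype can be compared there. The autoregulation recognises the amino acids that this start encodes, not the codons themselves. The starts were read from the Gencode vM21 transcripts (GRCm38), 5′ to 3′, from the start codon to base 30. Tuba1b and Tuba1c have the same codons 2 to 4 as Tuba1a, and Tubb4b has those of Tubb3.
Tuba1a: atgCGTGAGTGCatctccatccatgttggc
Tuba4a: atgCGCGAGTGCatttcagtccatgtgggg
Tubb2a: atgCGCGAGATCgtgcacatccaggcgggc
Tubb2b: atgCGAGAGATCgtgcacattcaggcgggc
Tubb3: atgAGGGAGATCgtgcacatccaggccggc
Tubb4a: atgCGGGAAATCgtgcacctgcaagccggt
Tubb5: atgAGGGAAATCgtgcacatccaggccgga

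The 4 α isotypes used 2 forms of these codons and the 6 β isotypes used 5. No form occurred in both classes, and Tuba4a, Tubb2a, Tubb2b, Tubb4a and Tubb5 each had a form of their own. Within a class the forms encode the same amino acids, Arg-Glu-Cys in the α isotypes and Arg-Glu-Ile in the β isotypes.

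The ends of the coding sequences encode the tails in which isotypes differ most. They are shown for the most alike β pair, with differing bases in capitals, over coding bases 1249 to 1338. In this pair the differing bases are synonymous, so the stretch encodes the same amino acids in both genes.
Tubb2a: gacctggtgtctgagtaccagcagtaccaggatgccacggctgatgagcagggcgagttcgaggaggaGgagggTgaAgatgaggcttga
Tubb2b: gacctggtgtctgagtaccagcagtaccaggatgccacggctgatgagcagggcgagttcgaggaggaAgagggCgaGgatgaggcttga

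Over the whole coding sequence, Tuba1a and Tuba1b were identical at 98.3% of aligned bases and Tubb2a and Tubb2b at 96.49%. Tuba4a was the outlying α isotype, with 84.73% identity to Tuba1a. The other β pairs shared between 81.45% and 84.6% of bases. The near-identical genes also lie together in the genome. In the deposited table (GRCm38), Tuba1b is at chr15:98931425-98934565, Tuba1a at chr15:98949841-98953551 and Tuba1c at chr15:99029891-99038105, while Tubb2a is at chr13:34074301-34078008 and Tubb2b at chr13:34127008-34130354. The remaining isotypes lie apart, with Tuba4a on chromosome 1, Tubb4b on chromosome 2, Tubb3 on chromosome 8 and both Tubb4a and Tubb5 on chromosome 17. Each gene has 4 exons in the Gencode vM21 transcript used.

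This likeness bears on the counts, because a read that matches several genes cannot by itself be given to one of them. The reads were sequenced in pairs, so the shares of single windows below are not shares of ambiguous read pairs. Of all 100-nt windows along the Tuba1b transcript, 69.1% were also found in transcripts of other genes, and the share was 53.4% for Tuba1c and 50% for Tuba1a. For Tubb2a it was 36.9% and for Tubb2b 27.8%, with 543 windows common to both. Tubb4b shared 29.2% of its windows, most of them with a pseudogene, and Tuba4a, Tubb3, Tubb4a and Tubb5 shared none. Tubb2b differs from Tubb2a mainly outside the coding sequence, where its 3′ untranslated region is 723 nt long and that of Tubb2a 194 nt. Genes that overlap an isotype's own locus were left out of this comparison. Tuba4a overlaps Stk16, which had 12 to 180 counts per library, and the sources differ on whether the libraries kept the strand. Tubb3 overlaps Gm20388 on the same strand, which had 0 counts in every library, and Tubb4b overlaps Fam166a, which had 0 to 1. The isotypes with shared windows or overlapping genes are therefore uncertain one by one, and sums over isotypes are given further on.

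**Figure D1:**
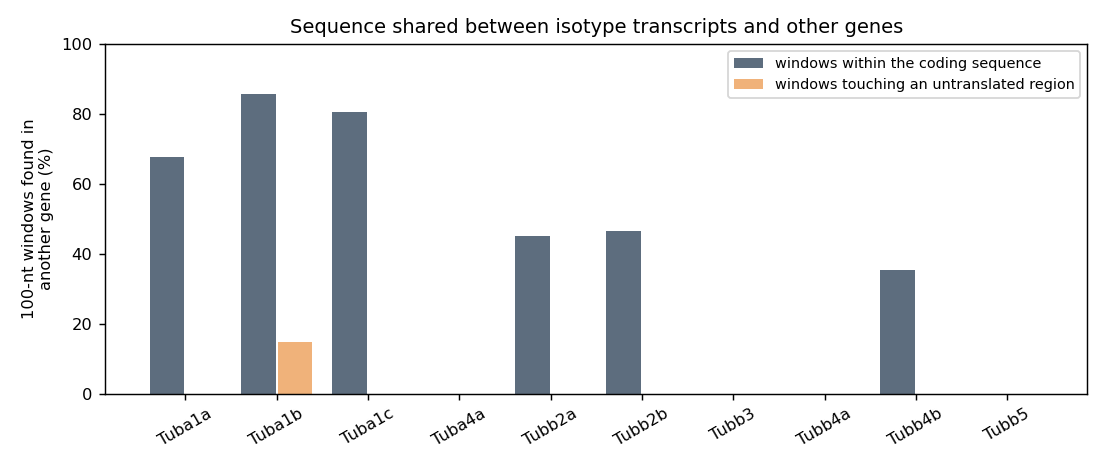
Percentage of 100-nt windows of each isotype transcript that also occur in transcripts of another gene, for windows inside the coding sequence and for windows that touch an untranslated region. Genes that overlap the isotype's own locus are left out. Tuba1b has the highest shares, 85.8% of its coding windows and 14.7% of the others, and Tuba4a, Tubb3, Tubb4a and Tubb5 have none.

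Levels of the isotypes were compared per length, as CPM divided by the exon length in kb. In total RNA the order began with Tubb2a at 154 ± 23.0, Tubb2b at 143 ± 17.3, Tuba1a at 131 ± 18.5, Tubb4a at 112 ± 9.37 and Tubb5 at 103 ± 6.68 (SD, n = 3). It ended with Tuba4a at 76.3 ± 3.96, Tubb4b at 74.6 ± 5.59, Tubb3 at 59.3 ± 5.98, Tuba1b at 59.0 ± 6.37 and Tuba1c at 14.6 ± 1.88. Ranges of neighbours in this order overlapped except at 3 steps, from Tubb5 to Tuba4a, from Tubb4b to Tubb3 and from Tuba1b to Tuba1c.

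On polyribosomes Tubb2b came first, at 266 ± 57.6 CPM per kb, and exceeded Tubb2a, at 210 ± 14.3, in 3 of 3 libraries although their ranges overlapped. Tuba1a at 159 ± 9.18 and Tubb4a at 157 ± 25.4 followed, and Tuba1a lay below the range of Tubb2a. Tubb4b lay above Tuba4a, at 108 ± 10.8 against 93.6 ± 18.8, with overlapping ranges. Tuba1c was again lowest, at 21.9 ± 5.22.

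When the length was counted only in windows not shared with another gene, an alternative chosen after seeing the data, Tuba1a came first in total RNA, at 277 ± 39.1 per kb, before Tubb2a at 260 ± 38.9, Tubb2b at 207 ± 25.1 and Tuba1b at 203 ± 21.9. The order of the α isotypes thus depended on how shared sequence was treated. Tubb2b stayed first on polyribosomes in this count, at 386 ± 83.5. Among the 12255 genes tested, the isotypes ranked from the top 2.69% by mean level, for Tubb2b, to the top 38.6%, for Tuba1c.

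**Figure D2:**
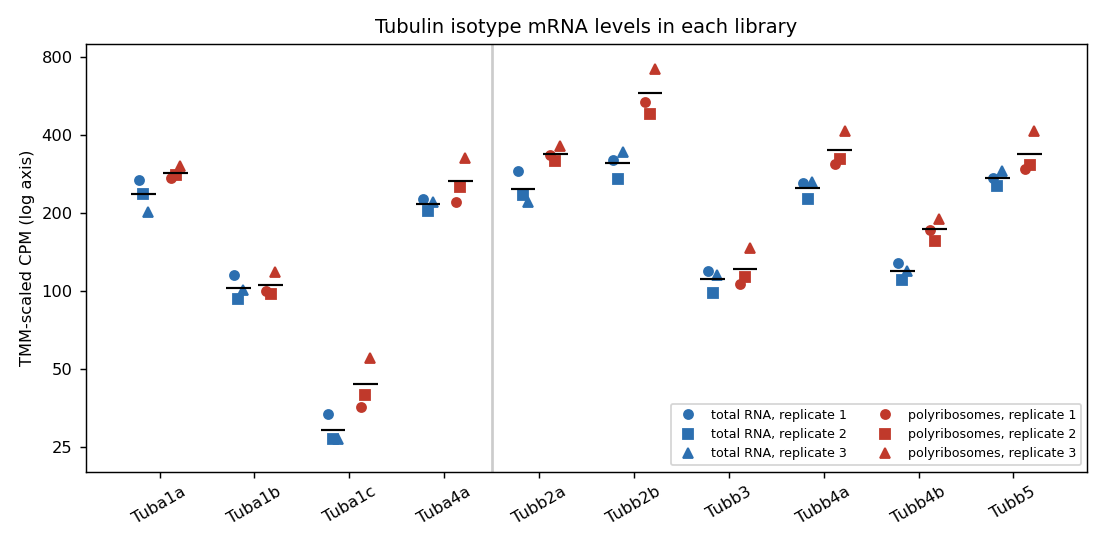
Level of each isotype mRNA in each of the 6 libraries, as CPM scaled by the TMM factors, on a log axis. Symbols mark the replicate number and black lines the group means. Polyribosome replicate 3 is the highest library for all 10 isotypes, and the groups do not overlap for Tuba1a, Tuba1c, Tubb2a, Tubb2b, Tubb4a, Tubb4b and Tubb5.

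Among the β isotypes, Tubb2b had 538, 483 and 723 CPM in polyribosome replicates 1 to 3 and 321, 270 and 343 in total RNA replicates 1 to 3. Every polyribosome library lay above every total RNA library. Its log2 fold change was 0.90 (SE 0.19), a 1.87-fold ratio of group means, and it passed the threshold of 0.01 with an adjusted p of 0.00972 by edgeR's quasi-likelihood test. This call was narrow, because the adjusted p was 0.0118 to 0.0685 with any single library left out, while the log2 fold change stayed between 0.72 and 1.02. With the replicate block the adjusted p was 7.4e-09 and by DESeq2 it was 3.6e-04.

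Tubb4b, a β isotype of many tissues and of cilia, had 172, 156 and 190 CPM on polyribosomes against 128, 111 and 119 in total RNA. The groups did not overlap, and its 3 within-preparation log2 ratios, 0.42, 0.50 and 0.68, were close to each other. The log2 fold change was 0.53 (SE 0.16), with an adjusted p of 0.0405 by edgeR, and 4.8e-04 with the replicate block.

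Tubb4a had 310.2, 323 and 414 CPM on polyribosomes against 261, 226 and 264 in total RNA, again without overlap. Its log2 fold change was 0.48 (SE 0.17), with an adjusted p of 0.0733 by edgeR and 0.0018 with the replicate block. Tubb2a had 335, 318 and 363 CPM on polyribosomes against 290.0, 235 and 219.6 in total RNA. Its polyribosome libraries were all above its total RNA libraries, and the log2 fold change was 0.44 (SE 0.17), with an adjusted p of 0.0877 by edgeR and 0.0031 with the replicate block.

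Tubb5, the β isotype found in most cells, had 295, 307 and 416 CPM on polyribosomes against 273, 255 and 291 in total RNA. The groups were separated by a small gap, and the log2 fold change of 0.31 (SE 0.18) did not pass the threshold without the block (adjusted p 0.24, edgeR) or with it (0.057). Tubb3 had 106, 113 and 146 CPM on polyribosomes against 119, 98.1 and 115 in total RNA, and the groups overlapped. Its log2 fold change was 0.14 (SE 0.18), with an adjusted p of 0.631 by edgeR.

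Among the α isotypes, Tuba1a had 273, 281 and 305 CPM on polyribosomes against 269, 237 and 202 in total RNA. The groups were separated by only a few CPM, and the log2 fold change was 0.27 (SE 0.17; adjusted p 0.285, edgeR). Tuba4a had 221, 251 and 325 CPM on polyribosomes against 226, 204 and 219.6 in total RNA, with an overlap of the groups. Its log2 fold change was 0.29 (SE 0.18; adjusted p 0.273, edgeR).

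Tuba1b was the isotype with the smallest difference. It had 99.7, 96.9 and 119 CPM on polyribosomes against 115, 93.1 and 100.7 in total RNA, and its log2 fold change was 0.02 (SE 0.17; adjusted p 0.938, edgeR). Tuba1c, the α isotype of lowest level, had 35.6, 39.6 and 55.2 CPM on polyribosomes against 33.3, 26.8 and 26.9 in total RNA. Its groups did not overlap, and its log2 fold change was 0.56 (SE 0.21), with an adjusted p of 0.0779 by edgeR and 0.0093 with the replicate block.

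As a family, 1 of 10 isotypes was called higher on polyribosomes, where 0.71% of all genes tested were, and none was called lower, where 2.36% of all genes were. All 10 log2 fold changes were above 0, as were 50.1% of those of all genes, while 49.9% were below. At an unadjusted p under 0.05, 5 isotypes were higher, against 15.4% of all genes, and none was lower, against 17.1%. The groups did not overlap, with polyribosomes higher, for 7 of 10 isotypes and for 17.4% of all genes. No isotype had all polyribosome libraries below, as 18.9% of all genes did. DESeq2 also called 1 isotype higher, Tubb2b, and none lower, where it called 2.48% and 3.71% of the genes it adjusted. The median log2 fold change was 0.38 over the 10 isotypes, 0.28 over the α isotypes, 0.46 over the β isotypes and 0.001 over all genes tested. The isotypes were measured in the same libraries and share sequence, so they are not independent of each other.

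The replicate block raised the number of isotypes called to 5, namely Tubb2b, Tubb4b, Tubb4a, Tubb2a and Tuba1c, where 11.8% of all genes were called higher. None was called lower, where 13.2% were. The preparations themselves differed. For all 10 isotypes the log2 ratio of polyribosomes to total RNA was lowest in preparation 1 and highest in preparation 3, an order that 20.0% of all genes had. For Tubb2b the ratios were 0.75, 0.84 and 1.07, for Tubb2a 0.21, 0.44 and 0.73, and for Tuba1c 0.10, 0.56 and 1.04. Tuba1b, Tuba4a and Tubb3 were below 0 in preparation 1, at -0.21, -0.03 and -0.16, and 7 of 10 isotypes were above 0 in all 3 preparations, where 30.2% of all genes were. Polyribosome replicate 3 was the highest of its group for all 10 isotypes and for 40.7% of all genes. Without that library the median over the isotypes was 0.28.

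**Figure D3:**
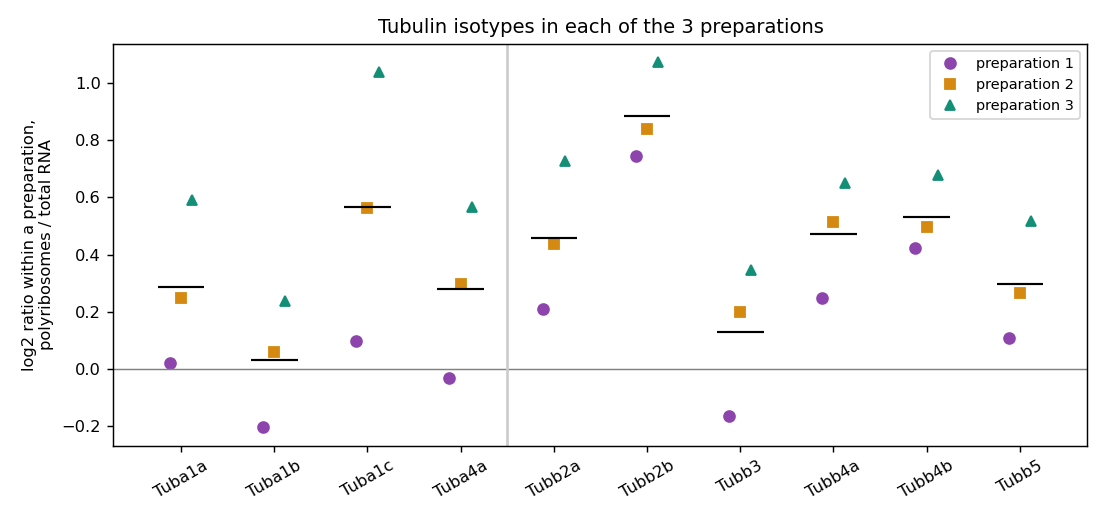
Log2 ratio of the polyribosome library to the total RNA library within each of the 3 preparations, for each isotype, with the mean as a black line. Preparation 3 is highest and preparation 1 lowest for all 10 isotypes, and Tubb2b lies between 0.75 and 1.07.

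Transcript composition moved with these differences. Over all genes tested, the median log2 fold change went from -0.36 for genes with under 45% GC, through -0.14 at 45 to 50% and 0.09 at 50 to 55%, to 0.32 for genes with 55% GC or more. The median GC content was 55.1% over the 10 isotypes and 50.3% over all genes, and the median exon length was 1925 nt over the isotypes and 3610 nt over all genes. Tubb2b had the lowest GC content of the 10, 51.2%, and Tubb3 the highest, 57.9%.

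When an offset for GC content and length was added to the blocked fit, the median over the isotypes was 0.14 and that over all genes 0.01, and Tubb2b was the only isotype called, where 9.14% of all genes were called higher and 7.21% lower. Tubb2b then had a log2 fold change of 0.75 (SE 0.12; adjusted p 2.0e-08, edgeR). Tubb4b had 0.20 (SE 0.12; adjusted p 0.198), and Tubb4a, Tubb2a, Tuba1c, Tuba4a, Tubb5 and Tuba1a lay between 0.02 and 0.17 without a call. Tuba1b and Tubb3 changed sign, to -0.31 (SE 0.12; adjusted p 0.0338) and -0.28 (SE 0.12; adjusted p 0.0559), and neither passed the threshold. With the offset but no block, none of the 10 was called by edgeR, Tubb2b included (0.77, adjusted p 0.0197), where 0.22% of all genes were called higher and 0.726% lower. At an unadjusted p under 0.05 that fit had 1 isotype higher, Tubb2b, and none lower, against 13.1% and 12.1% of all genes.

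**Figure D4:**
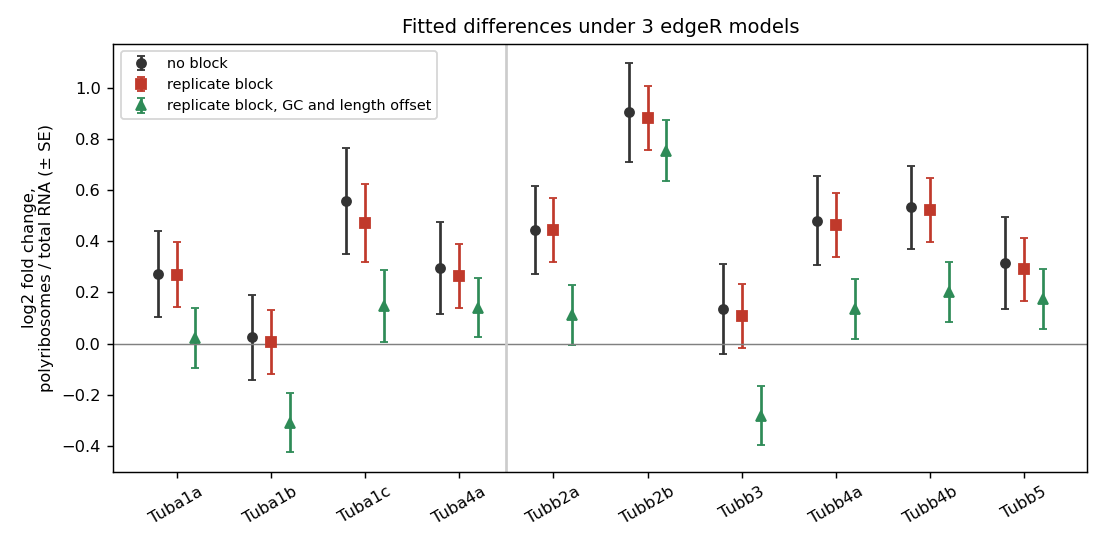
Log2 fold change of polyribosomes over total RNA with its standard error for each isotype, in the fit without a block, with the replicate block, and with the block and an offset for GC content and length. Tubb2b is at 0.90, 0.88 and 0.75 in the 3 fits, while Tubb2a goes from 0.44 and 0.44 to 0.11.

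Sums over the isotypes do not depend on how reads shared within a class were divided among its members. Reads shared with genes outside the class, such as pseudogenes, or left uncounted would still change the sums, and how the counting treated reads that match several genes is not given in the sources used here. The 6 β isotypes together had 1756, 1699 and 2253 CPM on polyribosomes against 1393, 1195 and 1351 in total RNA, and the groups did not overlap. The difference of mean log2 levels was 0.53 (exact permutation test, two-sided, p = 0.1, the smallest that 3 against 3 libraries can give). The 4 α isotypes together had 629, 669 and 804 CPM on polyribosomes against 643, 561 and 549 in total RNA, with an overlap and a difference of 0.26 (exact p = 0.2). All 10 isotypes together took 0.25% ± 0.027 of the protein-coding counts on polyribosomes and 0.196% ± 0.020 in total RNA (SD, n = 3).

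The balance between the classes lay further towards β on polyribosomes. The log2 ratio of α to β counts was -1.48, -1.34 and -1.49 on polyribosomes and -1.11, -1.09 and -1.30 in total RNA. The ratio was lower on polyribosomes in 3 of 3 preparations, the groups did not overlap, and the difference was -0.27 (exact permutation test, two-sided, p = 0.1, the smallest possible). This ratio does not depend on the scaling between libraries. The difference between the groups was -0.28 when counts were divided by exon length and -0.32 when they were divided by the length of unshared sequence. Without Tubb2b among the β isotypes, an alternative chosen after seeing the data, it was -0.14 (exact p = 0.2) and the groups overlapped. In the blocked fit with the GC and length offset the medians were 0.08 over the α isotypes and 0.15 over the β isotypes.

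Within the β class, Tubb2b took a larger share of the counts on polyribosomes, 30.6%, 28.4% and 32.1% in the 3 libraries, against 23.0%, 22.6% and 25.4% in total RNA. The difference of 6.70 percentage points was present in all 3 preparations (7.59, 5.84 and 6.67), with no overlap of the groups. Tubb5 took a smaller share, 17.8% ± 0.886 against 20.8% ± 1.05, and so did Tubb3, 6.40% ± 0.302 against 8.43% ± 0.187 (SD, n = 3). Shares of Tubb2a, Tubb4a and Tubb4b overlapped between the groups and differed by -0.94, -0.72 and 0.05 percentage points.

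Within the α class, Tuba1a and Tuba4a held most of the counts, 41.1% ± 2.84 and 37.7% ± 2.66 on polyribosomes, and overlapped with their shares in total RNA, 36.8% to 42.2% and 35.2% to 40.0%. Tuba1b took 14.5% to 15.8% on polyribosomes and 16.6% to 18.3% in total RNA, and Tuba1c took 6.15% ± 0.636 and 4.94% ± 0.205, both without overlap. The 5 shares whose groups did not overlap, those of Tubb2b, Tubb5, Tubb3, Tuba1b and Tuba1c, each had the smallest exact permutation p the design allows, 0.1, and an adjusted p of 0.2 over the 10 shares.

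**Figure D5:**
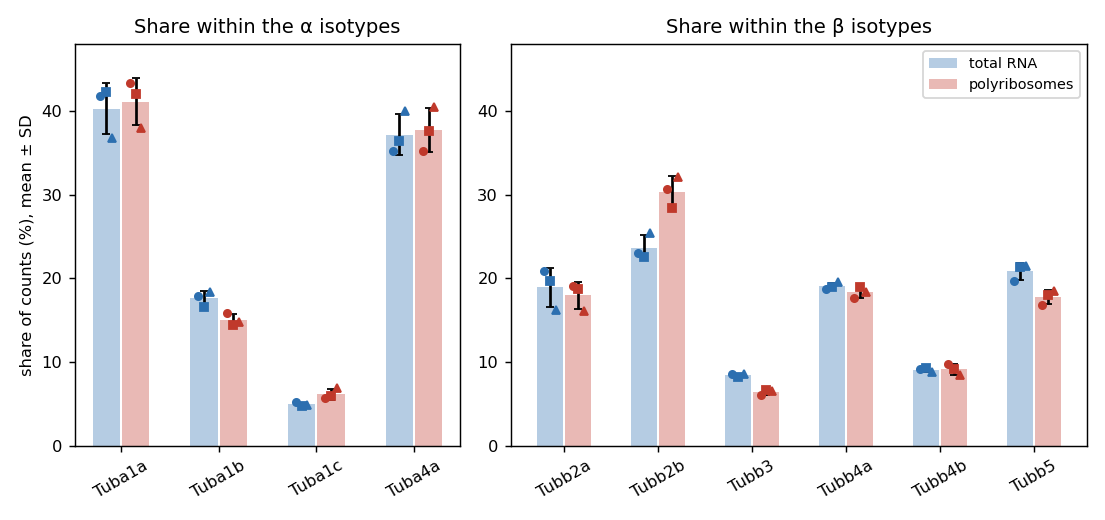
Share of each isotype in the counts on the 4 α isotypes (left) and on the 6 β isotypes (right), in percent, as means with SD bars and 1 point per library. Tubb2b takes 30.4% of β counts on polyribosomes and 23.7% in total RNA, and Tubb5 takes 17.8% and 20.8%.

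Because Tubb2b was singled out after its values were seen, its ratio to each other isotype is given as a description. The log2 ratio of Tubb2b to each of the other 9 isotypes was higher on polyribosomes in 3 of 3 preparations. That restates that Tubb2b had the highest within-preparation ratio of the isotypes in every preparation. All 9 ratios share Tubb2b, so they are not independent of each other. The groups did not overlap in 7 of the 9 ratios, the exceptions being the ratios to Tuba1c and Tubb2a. In raw counts, the log2 ratio of Tubb2b to its near-identical neighbour Tubb2a was 0.68, 0.60 and 0.99 on polyribosomes. In total RNA it was 0.15, 0.20 and 0.64. These ratios are not divided by exon length, which was 2182 nt for Tubb2b and 1610 nt for Tubb2a. Per length, Tubb2a had the higher mean in total RNA, at 154 against 143 CPM per kb. The largest difference was in the ratio to Tuba1b, 0.86, and the ratio to Tubb5, an isotype with no shared windows, differed by 0.59 with within-preparation values of 0.64, 0.57 and 0.56.

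The genes that act on tubulin were examined as lists. Of the proteins of autoregulation, Scaper was lower on polyribosomes, with 23.7 ± 3.14 CPM against 44.1 ± 5.89 in total RNA (SD, n = 3) and a log2 fold change of -0.87 (SE 0.19; adjusted p 0.00972, edgeR; 5.2e-07 with the replicate block). Without the block this call was as narrow as that of Tubb2b, just under the threshold of 0.01. Values for Scaper with other scalings or with a library left out are not given. Scaper was the only gene called of the lists of tubulin partners, where 2.36% of all genes were called lower and 0.71% higher. The lists had 4 autoregulation genes, 7 CCT subunits, 6 prefoldin subunits and 7 cofactors tested. They also had 8 genes of the γ-tubulin ring complex and 19 of tubulin-modifying enzymes and their partners. A single lower call among them is close to the share of all genes. The median over the 4 autoregulation genes was -0.32. Ttc5, which recognises nascent tubulin, had 17.2 ± 1.93 CPM on polyribosomes against 15.2 ± 4.72 in total RNA, with an adjusted p of 0.769 by edgeR. With the replicate block 2 of the 4 were called lower, Scaper and Cnot1, the scaffold of Ccr4-Not (-0.62, adjusted p 4.3e-05), where 13.2% of all genes were. With the GC and length offset added to the block, Scaper stayed called (-0.56, adjusted p 7.5e-04) and Cnot1 did not (-0.30, adjusted p 0.0397). In that fit 7.21% of all genes were called lower.

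Without the GC and length offset, the folding genes had list medians closer to that of all genes than the autoregulation genes had. The median log2 fold change was 0.04 over the 7 CCT chaperonin subunits tested, -0.04 over the 6 prefoldin subunits and 0.18 over the 7 tubulin cofactors, with none called by edgeR without the block. The remaining listed CCT subunit was not matched by symbol. The smallest p in each list belonged to Cct7 (0.27, SE 0.18; adjusted p 0.318), Pfdn2 (-0.87, SE 0.24; adjusted p 0.0294) and Arl2, a small GTPase that binds cofactor D (0.80, SE 0.22; adjusted p 0.0281). With the replicate block, Pfdn2 was called lower (1.1e-05) and Arl2 higher (5.3e-04), and the cofactor Tbce was called lower (-0.78, adjusted p 0.0013). That fit called 13.2% of all genes lower and 11.8% higher. With the offset added, Arl2 was no longer called (0.28, adjusted p 0.27), and Pfdn2 (-0.86), Pfdn5 (-0.40), Tbce (-0.69) and Tbcd (-0.51) were called lower. The share of all genes called lower was then 7.21%. In that fit the medians were 0.02, -0.06 and -0.22 over the CCT subunits, prefoldin and the cofactors. They were 0.01 over all genes and -0.16 over the autoregulation genes, so the cofactors lay further from all genes than autoregulation.

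The γ-tubulin ring complex, which nucleates microtubules, had a median of -0.36 over its 8 genes, of which 7 had a log2 fold change below 0. None passed the threshold without the block, and Tubgcp4 came nearest, at -0.77 (SE 0.19; adjusted p 0.0188 by edgeR, 8.5e-05 with the block). With the block 3 of the 8 were called lower, Tubgcp4, Tubgcp5 and Mzt1, and 1 higher, Mzt2, against 13.2% and 11.8% of all genes. With the offset added, only Tubgcp4 was called (-0.58, adjusted p 0.0020), where 7.21% of all genes were called lower and 9.14% higher. Of 24 listed genes for tubulin-modifying enzymes and their partners, 19 were tested, of which 15 had a log2 fold change below 0 and the median was -0.27. Ttll5, a polyglutamylase, had -0.79 (SE 0.18; adjusted p 0.0131 by edgeR, 1.2e-05 with the block). With the block 6 of the 19 were called lower and 2 higher, Sirt2, a deacetylase, and Tpgs1, a polyglutamylase subunit. The shares of all genes called lower and higher in that fit were 13.2% and 11.8%. With the offset added, none was called higher (Sirt2 0.25, Tpgs1 -0.07) and 2 were called lower, Ttll5 (-0.64) and Agbl4 (-1.31), a deglutamylase. All genes then had shares of 7.21% called lower and 9.14% called higher. Agbl4 was at a low level, with 31, 12 and 30 counts in the polyribosome libraries and 46, 28 and 11 in the total RNA libraries.

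The other tubulins were weakly represented. Of 6 further α and β isotypes only Tubb6 had enough counts to be tested, with 3.02 ± 1.38 CPM on polyribosomes against 1.68 ± 0.933 in total RNA (SD, n = 3; log2 fold change 0.67, adjusted p 0.35, edgeR). Tuba3b was at 0 in all 6 libraries. Of the γ, δ and ε tubulins 3 of 4 were tested, and Tubg1 had the smallest p (0.60, SE 0.22; adjusted p 0.0735, edgeR).

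Glial markers moved in the same direction as the isotypes. Astrocyte markers were above 0 for 10 of 10 genes, with a median log2 fold change of 0.52 and summed levels of 52177 to 58158 CPM on polyribosomes against 40118 to 45592 in total RNA. Oligodendrocyte markers were above 0 for 9 of 10, with a median of 0.30 and sums of 11348 to 15473 against 8196 to 11620. Microglia markers were above 0 for 10 of 10, with a median of 0.36 and sums of 1033 to 1203 against 666 to 942. The median was 0.23 for endothelial markers, with sums of 338 to 593 against 370 to 373, and 0.05 for neuronal markers. In the blocked fit with the GC and length offset, the medians were 0.59 for astrocyte, 0.32 for oligodendrocyte and 0.25 for microglia markers. They were 0.29 for endothelial and 0.09 for neuronal markers, and 0.14 over the isotypes. The part of these cell types in the tubulin values was not tested. In such bulk libraries the amount of material from a cell type and the amount of RNA per cell cannot be told apart.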

How the data were processed

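RNA was measured in 6 libraries of mouse synaptoneurosomes, 3 of polyribosomes after NMDA-R stimulation and 3 of total RNA without it. The authors depleted ribosomal RNA, mapped paired reads to GRCm38 with STAR 2.5.2b, per the submitters' processing notes, and deposited raw counts per protein-coding gene on the Gencode vM6 basic annotation. The sources differ on whether the libraries kept the strand. The deposited table also holds the authors' DESeq2 comparison (a mean normalized signal, a log2 fold change, a standard error, a score and p-values with their adjustment), none of which was used.

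Counts were scaled by TMM, filtered with filterByExpr (12255 genes kept) and tested with the quasi-likelihood method of edgeR 4.0.16 in R 4.3.3, group as the term, with Benjamini-Hochberg adjustment over all genes tested. DESeq2 1.42.0, other scalings and filters, a replicate block, a GC and length offset from Gencode vM21 (99.86% of genes) and leaving out each library were alternatives. The code was tested on simulated data. Same-numbered libraries share a label and, per the methods, come from aliquots of a preparation, and their deviations correlated (0.37, 0.26 and 0.38), which is why equal numbers were treated as pairs. No libraries were duplicates (chi-square per degree of freedom 3.58 to 21.5). Sums and shares were compared with exact permutation tests.

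The isotypes and gene lists were chosen with earlier results of these data known. All 10 isotypes are named, with, from each partner list, the genes past the threshold (at most 3) or else the gene of smallest p, and the 5 genes whose centred profile was nearest to that of the summed isotypes. Further partner genes were named after their values were seen. Library totals ranged from 1044955 to 7361580 counts. Proteins were not compared beyond the codons shown. The coding ends of the α isotypes are not reported here.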

Additional observations from a re-analysis of the deposited data

How the results depend on the processing

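The number of isotypes called higher was 0 by edgeR with RLE scaling, with total counts only, with upper quartile scaling, with at least 50 counts in every library and with the GC and length offset, 5 with the replicate block, and 0 whenever 1 library was left out. Tubb2b kept its direction in all of these, with adjusted p of 0.0101, 0.013, 0.0106, 0.0127 and 0.0197 in the 5 settings that lost it, and was called in 4 of 9 alternatives that used all libraries. The replicate block changed no call of a named isotype other than those given with the results. Tuba1c had no value under the filter of 50 counts. Tuba1b turned negative with total counts only (-0.088), the 50-count filter (-0.0089), the GC and length offset (-0.31) and the block with the offset (-0.31), and ranged from -0.068 to 0.11 with a library left out, negative at -0.068 without polyribosome replicate 3 and at -0.04 without total RNA replicate 2. Tubb3 turned negative with the offset (-0.27) and the block with the offset (-0.28), and ranged from -0.011, without polyribosome replicate 3, to 0.23. Over all genes, 268 were higher by DESeq2, 42 with total counts only, 476 without a filter, 15 with the 50-count filter, 27 with the offset, 1441 with the replicate block, 1120 with the block and offset, and 0 (without total RNA replicate 2) to 61 with a library left out. Lower were 566 without a filter, 100 with the 50-count filter, 89 with the offset, 1622 with the block, 883 with the block and offset, and 22 to 208 with a library left out. Total counts only moved the median of all genes to -0.11 and the list medians to -0.47 (γ ring), -0.15 (prefoldin), 0.065 (cofactors), -0.42 (autoregulation), -0.38 (modifiers) and -0.07 (CCT chaperonin, which turned sign), and the isotype median to 0.27. With a library left out, the share difference of Tubb2b was 5.85 to 7.68 percentage points, of Tubb5 -3.66 to -2.56, of Tuba1a -0.92 to 2.41, of Tuba4a -0.81 to 1.95 and of Tubb2a -2.27 to 0.016. Per exon length that of Tubb5 was -2.33. The difference in the α to β ratio was -0.14 without Tubb2b. The replicate block cannot give an exact p under 0.25 for the sums, ratio and shares with 3 pairs. The causes of these changes were not tested. Depth limited Tuba1c most, with 28 counts in total RNA replicate 3.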

Other observations

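The genes with the profile nearest to that of the summed isotypes, among 3732 genes with a mean of at least 50 CPM, were Sar1b, a GTPase of vesicle budding from the endoplasmic reticulum, Slc6a7, a brain proline transporter, Psmb7, a proteasome subunit, Fibcd1 and Atp13a1. Their centred log2 levels over the 6 libraries differed from those of the isotypes by a root mean square of 0.04, 0.05, 0.05, 0.05 and 0.06, where the median over all genes compared was 0.32. The log2 fold changes of these 5 genes lay between 0.42 and 0.52. Values near that of the summed isotypes follow from the selection, because the profile includes the difference between the groups.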
